A study of Danio rerio with 16 samples.

Results

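The erythroid genes described here are globins, enzymes of heme synthesis, genes of iron and heme handling, parts of the red cell membrane, erythroid regulators and red cell enzymes. They were chosen by symbol, ignoring letter case, from a list of 30, and 23 of the 30 were found among the 32266 genes of the count table. The other 7, among them hbbe1.1, hbbe1.2, hbbe1.3, hbbe2 and slc4a1a, were not analysed here under those names. All 23 found members passed the filter on low counts.

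Each of 16 RNA-seq samples was a pool of 20 whole zebrafish of the Tropical 5D line, taken at 48 h post fertilization (hpf). The 4 groups of 4 biological replicates crossed 2 morpholinos with 2 exposures. Control morphants (ConMO) or morphants of slincR, a long noncoding RNA (slincRMO), were exposed to vehicle, 0.1% dimethyl sulfoxide (DMSO), or to 1 ng/mL 2,3,7,8-tetrachlorodibenzo-p-dioxin (TCDD). Exposure began at about 6 hpf and lasted 1 h. All 4 groups carried a morpholino, and no embryos without one are used here. A morpholino is an oligomer that can pair with a target transcript and block its splicing or translation. How the slincR morpholino acts, and whether the control morpholino has a target in the embryo, was not tested. TCDD is a ligand of the aryl hydrocarbon receptor, and the comparisons ask how the embryo's transcripts respond to it with and without the slincR morpholino.

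Red cells of the zebrafish embryo arise from primitive erythroid precursors, enter circulation within the first days and keep their nucleus. They fill with embryonic hemoglobin, a tetramer of alpha and beta globin chains that each hold a heme. Heme is built in a chain of steps that begins with 5-aminolevulinate synthase in mitochondria and ends when ferrochelatase inserts iron, and Gata1 and Tal1 switch on many of these genes.

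Gene counts per library totalled 14977267 to 23142081. Reads that aligned to more than 1 place made up 24.4% to 29.4% of the entries counted in a library, and such reads are not part of the gene counts. Globin reads may map to several places, since globin genes lie in clusters of similar copies, so the globin counts are uncertain and can miss reads. Levels are given in CPM, counts relative to the TMM-scaled library size, and each adjusted p is from edgeR's quasi-likelihood (QL) test with Benjamini-Hochberg (BH) adjustment over the 20630 genes tested. A gene was called at an adjusted p under 0.05, and SE is the standard error of a log2 fold change. In bulk samples, fewer cells of a type and less RNA per cell cannot be told apart. The exposure showed in cyp1a, a standard target of the aryl hydrocarbon receptor, with log2 fold changes for TCDD of 7.27 in control and 7.38 in slincR morphants.

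In the mean of both kinds of morphant, TCDD-exposed embryos held less of hbae3, the main globin transcript measured. They also held less of alas2, the erythroid enzyme that starts heme synthesis, and of the carbonic anhydrase gene cahz. RHAG, a membrane channel protein of red cells, and nt5c2l1, a nucleotidase gene, were higher. These were 5 of 23 members called, in the mean of both TCDD responses, where 2.14% of all genes tested were called. Of them 3 were lower and 2 higher, against 0.805% of all genes called lower and 1.33% called higher. The members were chosen with earlier results of these data known, so these shares are descriptions and no test of the list. In control morphants alone cahz was the only member called, and in slincR morphants alone no member was. slincR morphants held less of the embryonic beta globin hbbe3 and of blvrb, a biliverdin reductase, which were 2 of 23 members called in the mean of both morpholino comparisons, against 1.87% of all genes tested. Both were lower, as were 1.19% of all genes, and neither was called in DMSO alone or in TCDD alone. The called differences in these means ran from 35.6% lower (hbbe3) to 37.6% higher (RHAG). The calls of alas2 and hbbe3 were kept under all 25 alternative settings, and those of cahz, hbae3, blvrb, nt5c2l1 and RHAG were lost under 1, 2, 3, 10 and 14 of them. The log2 fold change of RHAG went from 0.46 to 0.22 when each library's share of reads that fell in no gene was a covariate.

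Of the embryonic alpha globins, hbae3 (ENSDARG00000079305) stood at 1739.7, 1441, 1392 and 1581 CPM in control morphants in DMSO. In control morphants in TCDD it stood at 1368, 1051, 1336 and 1117 CPM. The slincR morphants held 1395, 1248, 1358 and 1426 CPM in DMSO and 803, 1040.2, 1299 and 1069 CPM in TCDD. The 4 TCDD libraries of control morphants lay below all 4 of their DMSO libraries, and in slincR morphants 3 of 4 did. The mean response to TCDD was a log2 fold change of −0.35 (SE 0.08, adjusted p 0.0181), which is 21.6% lower. The responses were −0.34 (SE 0.12, adjusted p 0.236) in control and −0.37 (SE 0.11, adjusted p 0.277) in slincR morphants. The call was lost without the second ConMO_TCDD library, at −0.32 and an adjusted p of 0.0553, and kept without the first slincRMO_TCDD library, at −0.30 and an adjusted p of 0.0414.

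The 9 measured rows of alpha and beta hemoglobin genes, members and others together, took up 0.165% ± 0.0127 (SD, n = 4) of gene counts in ConMO_DMSO and 0.135% ± 0.0185 in ConMO_TCDD. In slincR morphants they took up 0.145% ± 0.00775 in DMSO and 0.114% ± 0.0224 in TCDD. The row of hbae3 gave 88.5% to 94.8% of these counts in each library, so the sum is nearly a measure of that gene. Globin reads at several places are not in these counts, and hbbe1.1, hbbe1.2, hbbe1.3 and hbbe2 had no row under those names. The sums are thus lower bounds of the globin share, and the part of hbae3 in all globin transcripts is not known from them. The other alpha globin members had few counts. hbae1.1 had 2 to 57 counts per library and hbae5 27 to 146, and neither was called in any comparison. The morpholino differences of hbae5 were −0.61 (SE 0.29, adjusted p 0.525) in DMSO and −0.47 (SE 0.28, adjusted p 0.574) in TCDD.

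The beta globin hbbe3 (ENSDARG00000038147), the one beta globin member with a row, was called for the morpholino and not for the exposure. Its levels were 94.6, 60.7, 83.5 and 83.3 CPM in ConMO_DMSO and 83.7, 91.1, 78.9 and 58.6 CPM in ConMO_TCDD. They were 56.0, 52.7, 53.4 and 43.2 CPM in slincRMO_DMSO and 26.5, 54.9, 51.9 and 69.2 CPM in slincRMO_TCDD. Of the 8 slincR morphant libraries, 7 lay below all 8 control morphant libraries, and the lowest of the 16 was the first slincRMO_TCDD library. The mean difference of slincR from control morphants was −0.64 (SE 0.13, adjusted p 0.0114), or 35.6% lower, with −0.65 (SE 0.19, adjusted p 0.258) in DMSO and −0.62 (SE 0.19, adjusted p 0.174) in TCDD. Without that lowest library the mean difference was −0.53 and its adjusted p 0.00733. The mean TCDD response of hbbe3 was −0.03 (SE 0.13, adjusted p 0.946).

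In the RefSeq gene order, hbbe3 belongs to a cluster of 4 globin genes, hbae4, hbbe3, hbbe2 and hbae5, and hbae3 lies at the end of another cluster of 11. Here a cluster is the set of globin genes on the same chromosome, ordered by start position. Distances between the genes are not given. The neighbour hbae4, an alpha globin that is not among the members, stood at 4.13, 5.80, 4.15 and 5.93 CPM in ConMO_DMSO and 2.41, 2.37, 3.95 and 3.59 CPM in ConMO_TCDD. It stood at 4.65, 6.13, 5.64 and 4.80 CPM in slincRMO_DMSO and 1.99, 3.38, 3.78 and 2.0 CPM in slincRMO_TCDD. All 8 TCDD libraries lay below all 8 DMSO libraries. Its mean TCDD response was −0.81 (SE 0.17, adjusted p 0.00719) and its mean morpholino difference −0.03 (SE 0.17, adjusted p 0.959). The other neighbour with a row, hbae5, was not called in any comparison. It averaged 5.97 ± 0.867 and 5.93 ± 1.76 CPM in ConMO_DMSO and ConMO_TCDD (SD, n = 4). In slincRMO_DMSO and slincRMO_TCDD it averaged 3.92 ± 1.40 and 4.23 ± 1.80 CPM. The responses of neighbours were not tested against each other.

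**Figure D1:**
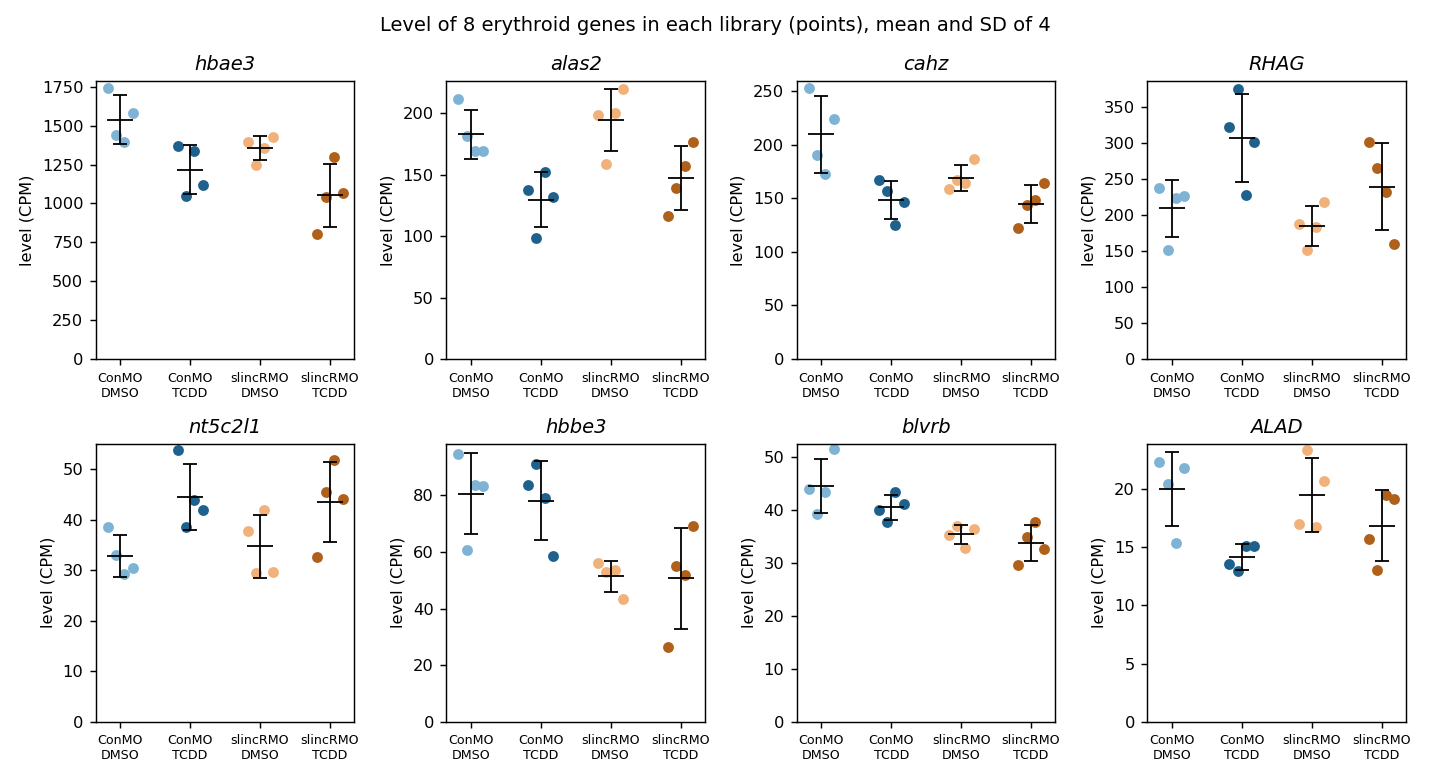
Levels (CPM, vertical axes from 0) of the 7 called erythroid genes and of ALAD in each library, by group, with the mean and SD of 4 libraries. hbae3, alas2 and cahz are lower in the TCDD groups, RHAG and nt5c2l1 are higher there, and hbbe3 and blvrb are lower in the slincR morphants.

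Among the 7 heme synthesis enzymes with a row, 1 was called in the mean TCDD response, against 2.14% of all genes. Of their values 6 of 7 were negative, against 50.0% of all genes, with a median of −0.17. alas2 (ENSDARG00000038643), whose enzyme makes 5-aminolevulinate in erythroid mitochondria, stood at 212, 182, 169 and 169.6 CPM in ConMO_DMSO. It stood at 137, 98.2, 152 and 132 CPM in ConMO_TCDD, at 199, 159, 200.2 and 220.2 CPM in slincRMO_DMSO and at 116, 139.6, 158 and 176 CPM in slincRMO_TCDD. Of the 8 TCDD libraries, 7 lay below all 8 DMSO libraries. The mean response was −0.45 (SE 0.09, adjusted p 0.00687), or 26.7% lower, with −0.50 (SE 0.13, adjusted p 0.0876) in control and −0.40 (SE 0.13, adjusted p 0.309) in slincR morphants. Without the first slincRMO_TCDD library the mean response was −0.40 (adjusted p 0.0203). In control morphants alone alas2 passed under 3 of 26 alternatives, and its adjusted p went up to 0.329 in the others. It passed with DESeq2 (adjusted p 0.0342), with no filter on low counts (adjusted p 0.0383) and without the third ConMO_TCDD library (adjusted p 0.0487).

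ALAD, the enzyme of the second step, averaged 20.0 ± 3.21 CPM (SD, n = 4) in ConMO_DMSO and 14.2 ± 1.12 CPM in ConMO_TCDD. In slincR morphants it averaged 19.5 ± 3.18 CPM in DMSO and 16.8 ± 3.07 CPM in TCDD. Its mean response of −0.35 (SE 0.10, adjusted p 0.0734) was not called. It was called under 2 of 25 alternatives, with DESeq2 (adjusted p 0.0342) and without the third ConMO_DMSO library (adjusted p 0.0255). In the others its adjusted p went up to 0.235. CPOX, a later enzyme of the chain, had −0.34 (SE 0.11, adjusted p 0.139), and UROD, which acts just before it, −0.14 (SE 0.08, adjusted p 0.461). The values of uros and PPOX were −0.17 (SE 0.13) and 0.11 (SE 0.14), neither of them called.

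FECH (ENSDARG00000003462), whose enzyme inserts iron into the ring, had the smallest unadjusted p of the members in the interaction, the difference between the TCDD responses. It had 18 to 59 counts per library and stood at 2.57, 1.59, 1.38 and 1.21 CPM in ConMO_DMSO and 2.60, 2.11, 2.60 and 1.96 CPM in ConMO_TCDD. Its levels in slincR morphants were 2.44, 2.47, 1.95 and 2.62 CPM in DMSO and 1.15, 1.74, 1.5 and 2.16 CPM in TCDD. The TCDD responses were 0.45 (SE 0.27) in control and −0.53 (SE 0.27) in slincR morphants, and the groups overlapped in both. The interaction was −0.97 (SE 0.38, unadjusted p 0.0181 in edgeR's QL test), and its adjusted p over all genes was 1.00. No member and no gene at all, 0% of those tested, was called in the interaction, with 1 of 23 members at an unadjusted p under 0.05, against 2.99% of all genes.

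Of the 3 genes of iron and heme handling, blvrb (ENSDARG00000096829) was called in the mean morpholino comparison, as were 1.87% of all genes. Its product, biliverdin reductase B, is abundant in human red cells, where it reduces flavins and biliverdin. It stood at 44.0, 39.3, 43.5 and 51.5 CPM in ConMO_DMSO and 40.0, 37.7, 43.5 and 41.1 CPM in ConMO_TCDD. In slincR morphants the values were 35.3, 37.1, 32.9 and 36.5 CPM in DMSO and 29.7, 34.9, 37.7 and 32.7 CPM in TCDD. Of the 8 slincR morphant libraries, 7 lay below all 8 control libraries, the exception being the third slincRMO_TCDD library. The mean difference was −0.30 (SE 0.07, adjusted p 0.0230), or 18.6% lower. The call was lost without the third slincRMO_DMSO library (adjusted p 0.0621) and without the first slincRMO_TCDD library (adjusted p 0.0637).

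The other members of this role were not called in any comparison. They are tfr1a, the transferrin receptor that brings iron into erythroid cells, and SLC25A37, mitoferrin, which carries iron into mitochondria. tfr1a was 11.1 CPM in the fourth ConMO_DMSO library and 25.6 to 28.7 CPM in the other ConMO_DMSO libraries. Its mean TCDD response was −0.11 (SE 0.13) and that of SLC25A37 −0.13 (SE 0.15).

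Of the 4 membrane and cytoskeleton genes with a row, RHAG (ENSDARG00000019253) was called higher in the mean TCDD response, as were 1.33% of all genes. RHAG is the Rh-associated glycoprotein that passes ammonia across the membrane. It stood at 237, 151, 223 and 226 CPM in ConMO_DMSO and 321, 374, 227 and 301 CPM in ConMO_TCDD. In slincR morphants it stood at 187, 151, 183 and 218 CPM in DMSO and 301, 265, 232 and 159.7 CPM in TCDD. Of the 8 TCDD libraries, 5 lay above all 8 DMSO libraries, and the fourth slincRMO_TCDD library lay among the lowest. The mean response was 0.46 (SE 0.12, adjusted p 0.0371), with 0.55 (SE 0.17, adjusted p 0.162) in control and 0.37 (SE 0.17, adjusted p 0.653) in slincR morphants.

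RHAG moved with the share of reads that fell in no gene. After subtraction of the group means, its log2 CPM and that share had a Pearson r of 0.91 over the 16 libraries, and both values of a point come from the same library and its depth. The adducin gene add2 also had r = 0.91, against −0.29 for alas2 and −0.12 for hbae3. The share ran from 12.8% to 15.0% in ConMO_DMSO, 13.4% to 16.1% in ConMO_TCDD, 13.1% to 15.2% in slincRMO_DMSO and 12.8% to 15.2% in slincRMO_TCDD. With the share as a covariate the RHAG response was 0.22 (adjusted p 0.0698), and the call was lost under 14 of 25 alternatives. They include each fit without library 2 of ConMO_DMSO, 1, 2 or 4 of ConMO_TCDD, 1, 2 or 3 of slincRMO_DMSO or 1, 2 or 3 of slincRMO_TCDD, with adjusted p values up to 0.107. The part of the share in the RHAG result was not tested beyond this covariate.

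**Figure D2:**
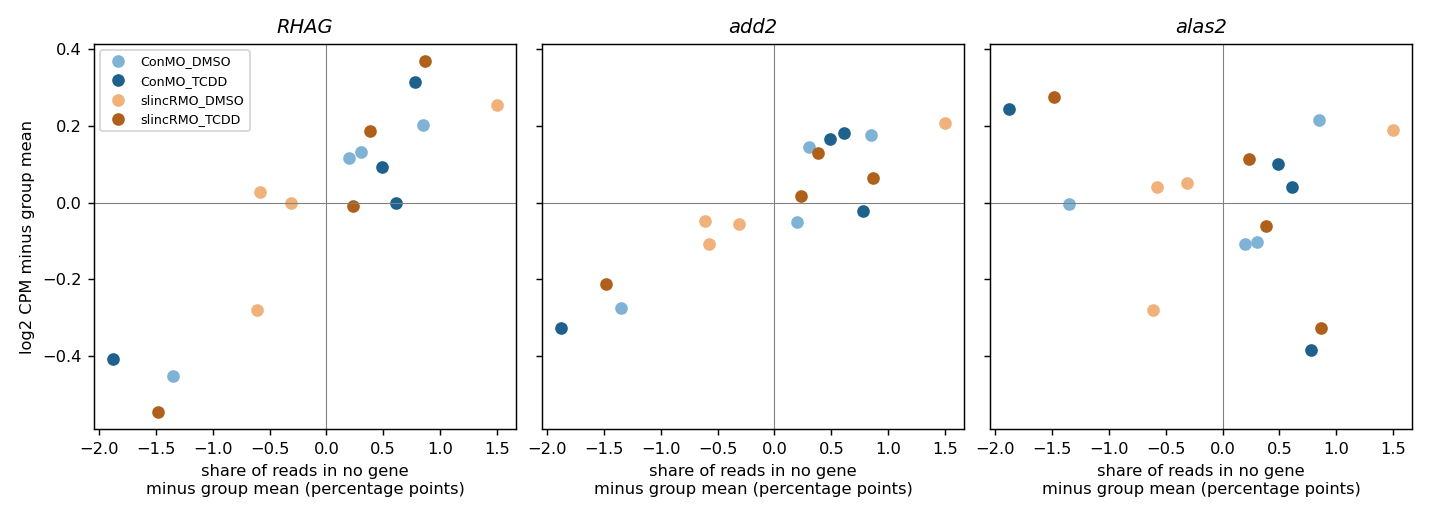
Log2 CPM of RHAG, add2 and alas2 in each library minus its group mean (vertical axis) against the library's share of reads in no gene minus its group mean (horizontal axis, percentage points), coloured by group. The points of RHAG and add2 rise along the share (r = 0.91 for each), and those of alas2 do not (r = −0.29).

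The remaining membrane members were not called. The mean TCDD responses were −0.01 (SE 0.07) for SPTB, the beta spectrin of the membrane skeleton, 0.01 (SE 0.08) for add2, which caps its actin filaments, and −0.11 (SE 0.10) for epb41b, of the protein 4.1 family. The gene table holds 2 rows named SLC4A1, the anion exchanger band 3, that could not be assigned to slc4a1a. The row with more counts, ENSDARG00000012881, averaged 259 ± 10.6 CPM in ConMO_DMSO, 203 ± 12.7 CPM in ConMO_TCDD, 263 ± 13.5 CPM in slincRMO_DMSO and 227 ± 33.0 CPM in slincRMO_TCDD (SD, n = 4). Its mean TCDD response was −0.28 (SE 0.06, adjusted p 0.0165), and 7 of 8 TCDD libraries lay below all 8 DMSO libraries. That call was lost without the second ConMO_TCDD library and without both libraries that stand apart. The row ENSDARG00000024560 had 0.10 (SE 0.15, adjusted p 0.813).

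None of the 3 regulators and receptors was called. TAL1 (ENSDARG00000019930), the bHLH factor of blood precursors, stood at 31.2, 31.2, 29.3 and 37.9 CPM in ConMO_DMSO and 27.8, 30.3, 21.7 and 27.3 CPM in ConMO_TCDD. The slincR morphants held 30.5, 29.4, 33.2 and 29.8 CPM in DMSO and 22.3, 29.9, 27.5 and 28.0 CPM in TCDD. The TCDD libraries ran from 21.7 to 30.3 CPM and overlapped the DMSO libraries, which ran from 29.3 to 37.9 CPM, with a mean response of −0.23 (SE 0.08, adjusted p 0.159). gata1a, the master factor of the red lineage, had 13 to 51 counts per library and a response of −0.15 (SE 0.25). EPOR, the erythropoietin receptor, had −0.06 (SE 0.15).

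Both red cell enzymes were called in the mean TCDD response, in opposite directions, where 2.14% of all genes tested were called. cahz (ENSDARG00000011166), the red cell carbonic anhydrase that speeds carbon dioxide transport, stood at 253, 190.3, 172 and 224 CPM in ConMO_DMSO and 167, 156, 125 and 147 CPM in ConMO_TCDD. Its levels in slincR morphants were 158, 167, 164 and 187 CPM in DMSO and 122, 143, 149 and 165 CPM in TCDD. In control morphants all 4 TCDD libraries lay below all 4 DMSO libraries, and over both morphants 6 of 8 lay below all 8. Its response in control morphants, −0.50 (SE 0.11, adjusted p 0.0362), was the 1 call among 23 members in that comparison, where 0.62% of all genes were called. In slincR morphants it was −0.22 (SE 0.11, adjusted p 0.736), and the interaction was not called. The mean response was −0.36 (SE 0.08, adjusted p 0.0130), or 22.1% lower. The call in control morphants was lost under 10 of 26 alternatives. They include the fit to the 8 samples compared and each fit without library 1 or 4 of ConMO_DMSO, 2, 3 or 4 of ConMO_TCDD, 2 of slincRMO_DMSO or 2 or 3 of slincRMO_TCDD, with adjusted p values up to 0.131. The call in the mean was lost without both libraries that stand apart (−0.30, adjusted p 0.0696). The authors' deposited table gives cahz a log2 fold change of −0.495 and an adjusted p of 0.0293 in control morphants, and it is the one member in their list.

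nt5c2l1 (ENSDARG00000034852), a gene of the cytosolic 5′-nucleotidase family, stood at 38.7, 33.1, 29.3 and 30.5 CPM in ConMO_DMSO and 53.8, 38.5, 44.0 and 41.9 CPM in ConMO_TCDD. In slincR morphants the values were 37.8, 29.5, 42.1 and 29.7 CPM in DMSO and 32.7, 45.5, 51.8 and 44.2 CPM in TCDD. Of the 8 TCDD libraries, 5 lay above all 8 DMSO libraries. The mean response was 0.38 (SE 0.10, adjusted p 0.0393), or 30.4% higher, with 0.44 (SE 0.14, adjusted p 0.194) in control and 0.33 (SE 0.14, adjusted p 0.610) in slincR morphants. The call was lost under 10 of 25 alternatives, each without 1 library, namely 2, 3 or 4 of ConMO_DMSO, 1 or 4 of ConMO_TCDD, 2 or 4 of slincRMO_DMSO, or 2, 3 or 4 of slincRMO_TCDD (adjusted p up to 0.109).

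Set against alas2 within each library, nt5c2l1 gave values that did not overlap between the exposures. The log2 ratio of nt5c2l1 to alas2 was −2.48 ± 0.04 (SD, n = 4) in ConMO_DMSO and −1.54 ± 0.22 in ConMO_TCDD. It was −2.49 ± 0.28 in slincRMO_DMSO and −1.76 ± 0.19 in slincRMO_TCDD. The highest DMSO library stood at −2.25 and the lowest TCDD library at −1.99. This pair was picked after its values were seen, and the ratio is given as a description with no test.

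**Figure D3:**
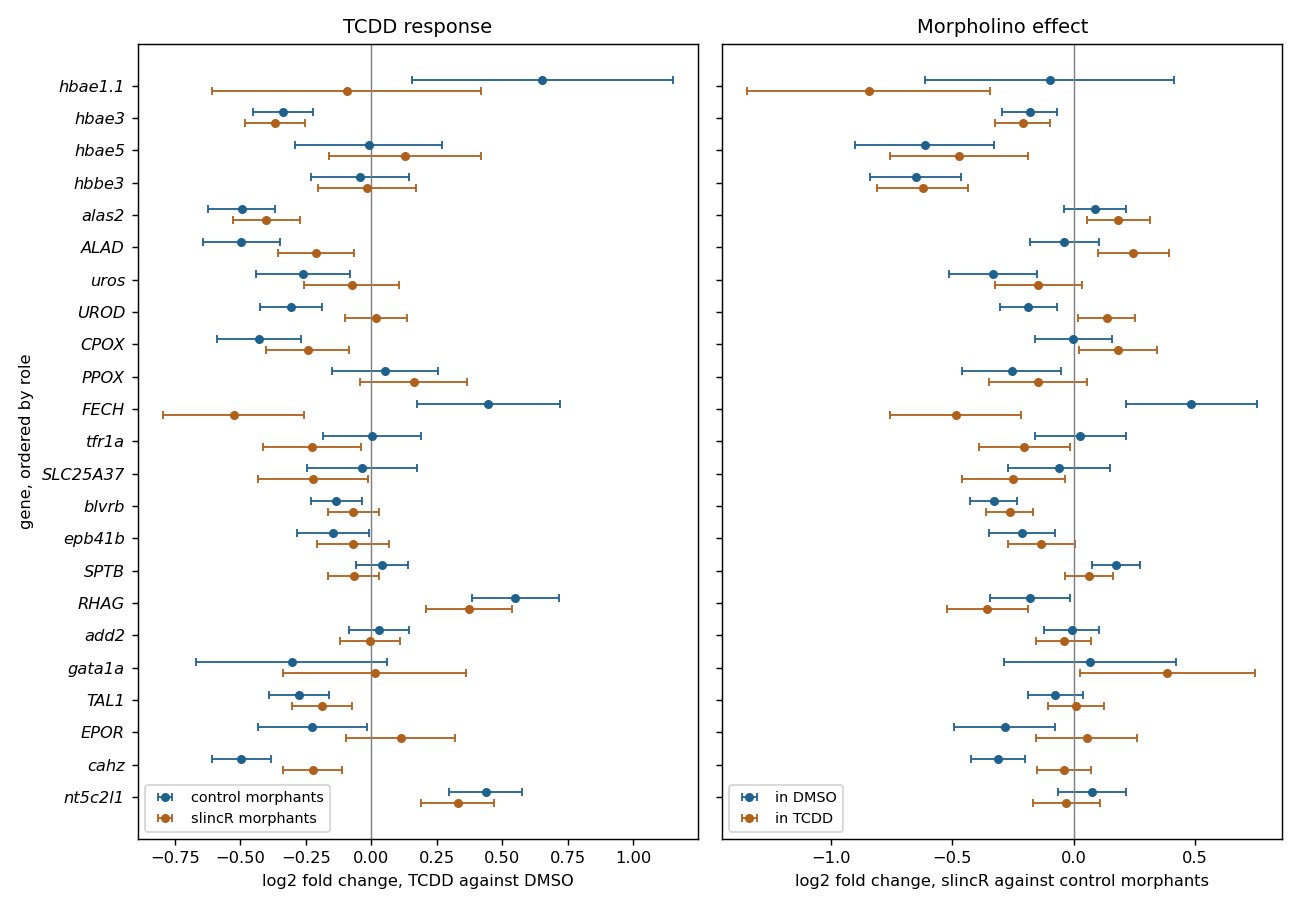
Log2 fold changes (points) with their SE (bars) of the 23 members, ordered by role, for TCDD against DMSO in each kind of morphant (left) and for slincR against control morphants in each exposure (right). alas2, hbae3 and cahz lie below 0 and RHAG and nt5c2l1 above it in both morphants on the left, and hbbe3 and blvrb lie below 0 in both exposures on the right.

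Over the 23 members the median log2 fold change was −0.13 for TCDD in control morphants, −0.07 in slincR morphants and −0.11 for their mean, against medians within 0.01 of 0 over all genes tested. In the mean, 17 of 23 were negative, against 50.0% of all genes. At an unadjusted p under 0.05 there were 9, 4 and 8 members in these comparisons, against 11.2%, 6.91% and 14.2% of all genes. No member was called for TCDD in slincR morphants, where 0.383% of all genes were, and hbae3 had the smallest p there (0.00394, edgeR's QL test). DMSO and TCDD groups are shared with the morpholino comparisons, so the signs of both kinds of comparison are not independent. The first slincRMO_TCDD library, low in most members, enters the values of slincR morphants and of the mean. Medians and signs were not taken without that library.

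For slincR against control morphants the median was −0.10 in DMSO, −0.13 in TCDD and −0.11 for the mean, with 17, 15 and 17 of 23 members negative, against 49.9%, 50.7% and 49.6% of all genes. The first slincRMO_TCDD library, low in most members, enters the TCDD and mean values, and the medians and signs were not taken without it. No member was called in DMSO, where 0.15% of all genes were, or in TCDD, where 0.446% were. hbbe3 had the smallest p in each (0.00207 and 0.00297, edgeR's QL test), and 4 and 3 members had an unadjusted p under 0.05, against 9.11% and 10.8% of all genes.

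The first slincRMO_TCDD library stood apart in these genes. In it 17 of 23 members lay below the other 3 libraries of its group, against 24.7% of all genes, and the median ratio to their mean was 0.802, against 0.995 for all genes. It was the lowest of the 16 libraries in 9 members, and hbae1.1 had 2 counts there. RHAG was the one member above the other 3, at 1.37 times their mean. The fourth ConMO_DMSO library stood apart on the first principal component of all genes (−63.4, the others between −17.7 and 19.4). There 5 of 23 members lay below the other 3 libraries of its group, against 30.7% of all genes. In it 4 members lay above and 14 within the range of the other 3. Without both libraries, alas2 (−0.41, adjusted p 0.0197) and nt5c2l1 (0.43, adjusted p 0.0216) were called for TCDD and hbbe3 (−0.52, adjusted p 0.0111) for the morpholino. hbae3 (−0.29, adjusted p 0.0619), cahz (−0.30, adjusted p 0.0696), RHAG (0.42, adjusted p 0.105) and blvrb (−0.23, adjusted p 0.0834) were not.

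**Figure D4:**
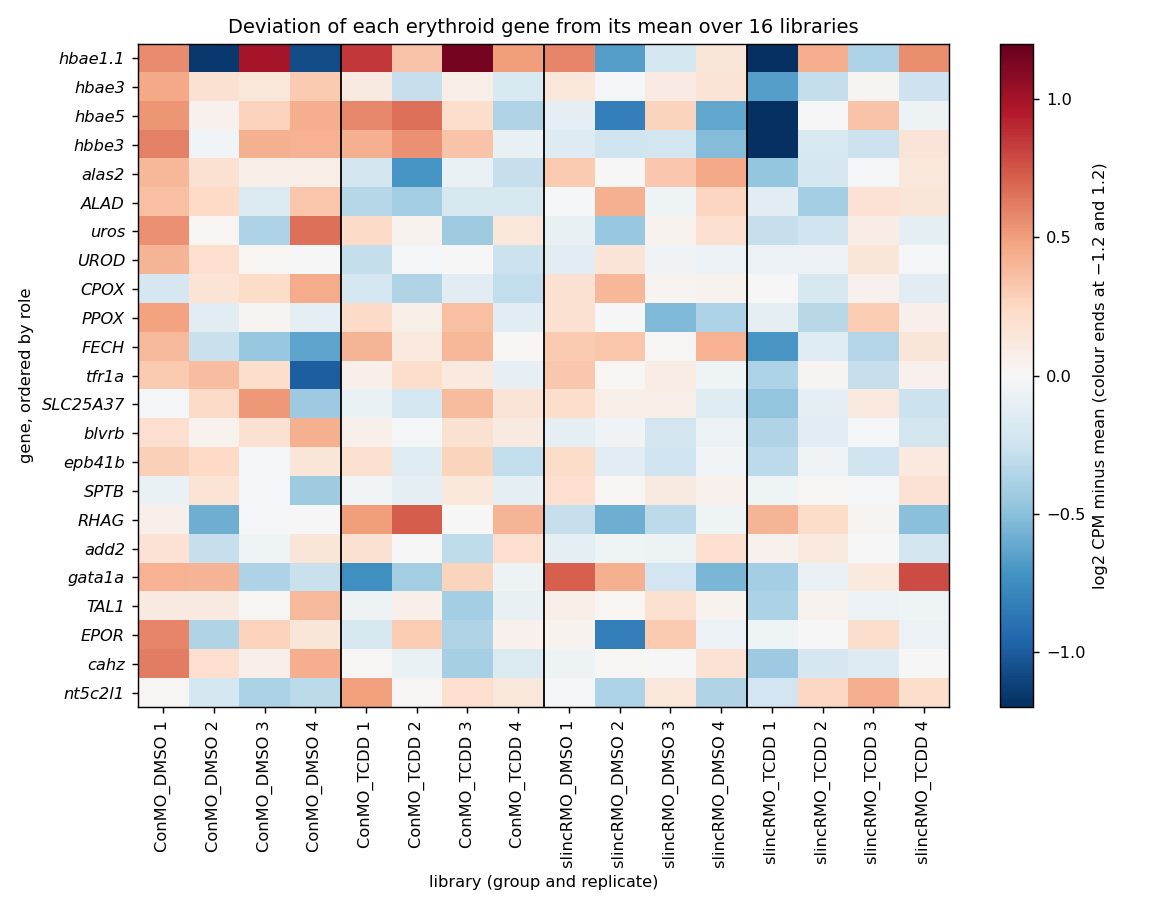
Log2 CPM of the 23 members (rows, ordered by role) in the 16 libraries (columns, by group) minus each gene's mean, red higher and blue lower, with colours ending at −1.2 and 1.2. The first slincRMO_TCDD library is blue in most rows, and RHAG is red in that library.

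Within groups the members did not all vary together. After subtraction of group means, log2 CPM over the 16 libraries gave Pearson r with hbae3 of 0.77 for nt5c2l1, 0.77 for alas2, 0.66 for hbae5 and 0.60 for blvrb, against −0.21 for RHAG and −0.08 for CPOX. Without the first slincRMO_TCDD library and with group means taken again, these were 0.65, 0.68, 0.37, 0.43, 0.07 and 0.00 over 15 libraries. In the same way hbbe3 went from 0.55 to 0.09 and hbae1.1 from 0.54 to 0.13, while PPOX went from 0.48 to 0.54. Some genes outside the list had values as high, with 0.84 for gcga and 0.77 for GULP1, or 0.72 and 0.55 without that library. nt5c2l1, positively correlated with hbae3 within groups, had the opposite sign in the TCDD response. These correlations share library, depth and scaling, and are descriptions.

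Among genes outside the list with a mean of at least 1 CPM and a symbol that is not a clone name, the 10 with the highest r with the members' mean over the 16 libraries, each minus its group mean, had r from 0.79 to 0.87. They were SCG5, tmsb, GULP1, fgl1, gcga, METTL1, glmp, lsr, C1QTNF2 and grhl3. This ranking rests on the first slincRMO_TCDD library: without it their r ran from 0.48 (grhl3) to 0.85 (tmsb), and 1 of the 10 remained among the 10 highest. None of them was on the other erythroid lists and none was called in the mean TCDD response or in the mean morpholino difference.

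Other globins and genes linked to red cells were counted by lists of their own. The counts are to be read against the 2.14% of all genes called in the mean TCDD response and the 1.87% called in the mean morpholino difference. Of 7 other globins tested, hbae4 was called lower in the mean TCDD response, with 6 of 7 negative. The 7 include mb (myoglobin), cygb2 (a cytoglobin) and NGB (neuroglobin), which are not hemoglobin chains. Of 23 other erythroid regulators, hemgn was called lower (−0.47, SE 0.10, adjusted p 0.00901) and KLF3 higher (0.69, SE 0.14, adjusted p 0.00687). hemgn, the hemogen gene of blood precursors, averaged 40.8 ± 5.82 and 30.3 ± 4.42 CPM in ConMO_DMSO and ConMO_TCDD and 42.4 ± 5.58 and 29.7 ± 6.36 CPM in slincRMO_DMSO and slincRMO_TCDD (SD, n = 4). klf1, the factor that switches on globin genes, had −0.40 (SE 0.14, adjusted p 0.142). For the morpholino mean, 1 of the 23 regulators was called, bcl11ab (0.28, SE 0.07, adjusted p 0.0333), a call lost under 9 of 25 alternatives. They are the fit without both libraries that stand apart and each fit without library 1 of ConMO_DMSO, 1 or 2 of ConMO_TCDD, 2 or 3 of slincRMO_DMSO, or 1, 2 or 4 of slincRMO_TCDD (adjusted p up to 0.0847).

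Of 20 other heme and iron genes, tfa, the plasma iron carrier transferrin, was called lower in TCDD (−0.27, SE 0.06, adjusted p 0.0125), a call lost without both libraries that stand apart (adjusted p 0.0688). hmox1a, the heme oxygenase that breaks heme down, is left out of that count because its name was matched through the authors' list of called genes. It averaged 7.01 ± 0.659 and 11.2 ± 1.64 CPM in ConMO_DMSO and ConMO_TCDD and 8.99 ± 1.93 and 19.1 ± 3.83 CPM in slincRMO_DMSO and slincRMO_TCDD (SD, n = 4). Its mean TCDD response was 0.88 (SE 0.12, adjusted p 3.49e-05) and its mean morpholino difference 0.57 (SE 0.12, adjusted p 0.00913). epas1b and thbs1b, on the regulator and thrombocyte lists and matched the same way, had mean TCDD responses of 0.44 (SE 0.09, adjusted p 0.00550) and 0.43 (SE 0.06, adjusted p 3.06e-05). None of 8 other red cell membrane genes was called. Of 8 red cell antioxidants, GSR was called higher in TCDD (0.31, SE 0.08, adjusted p 0.0263) and gpx4a lower in slincR morphants (−0.35, SE 0.07, adjusted p 0.0123). The GSR call was lost under 9 of 25 alternatives (adjusted p up to 0.0749). They are the fit with the no-gene read share as covariate, the fit without both libraries that stand apart and each fit without library 2 of ConMO_DMSO, 1 or 4 of ConMO_TCDD, 1 or 3 of slincRMO_DMSO, or 1 or 2 of slincRMO_TCDD.

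Genes on the lists for other blood and vessel cells moved in both directions with TCDD. Of 11 neutrophil and macrophage genes, mmp13a (1.48) and MMP9 (0.91) were called higher and lyz (−0.91) lower. Their summed level ran from 134 to 162 CPM in ConMO_DMSO, 132 to 140.3 CPM in ConMO_TCDD, 129 to 149 CPM in slincRMO_DMSO and 129 to 147 CPM in slincRMO_TCDD. Of 13 endothelial genes, clec14a (−0.42) and stab2 (−0.28) were called lower and vwf (0.99) higher. The stab2 call was lost under 17 of 25 alternatives, among them the replicate block (adjusted p 0.0795), the no-gene read share as covariate (adjusted p 0.105) and 13 of the 16 fits without 1 library, the exceptions being those without library 3 or 4 of ConMO_DMSO or 3 of ConMO_TCDD. The vwf call was lost without library 2 of ConMO_TCDD, 3 of slincRMO_DMSO or 1 of slincRMO_TCDD (adjusted p up to 0.0685). Their summed level ran from 347 to 358, 329 to 350.2, 356 to 362 and 346 to 374 CPM in the same groups. None of 4 stem and progenitor genes and neither of 2 thrombocyte genes tested was called, and no marker on these lists was at 0 in every library. The part of these cells in the erythroid results was not tested, and neither was which cells held the mmp13a and MMP9 transcripts.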

How the data were processed

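The authors deposited raw counts per Ensembl gene and library. Per the submitters' processing notes, reads went through TopHat, SAMtools and HTSeq on build GRCz10, and FastQC and edgeR are also named. The handling of strand is not given in the sources used here; reads of a gene and of an overlapping or antisense one may thus be mixed. The authors also deposited lists of genes called for TCDD in each kind of morphant, with log2 fold changes, mean log2 levels, an F score, p-values and adjusted p-values per the file headers, and a −log10 value of the adjusted p as deposited. These lists were used for names the gene table lacks and for the deposited value of cahz.

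Entries for reads in no gene, at several places or ambiguous (0.274% to 0.332%) entered neither library sizes nor tests. Symbols came from a table that names 26433 of 32266 identifiers, and 10 members are printed in its upper case. Gene order came from the chromosomes and start positions of RefSeq (assembly GRCz12tu), which were used for nothing else.

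Counts were normalised by TMM and filtered with filterByExpr (minimum count 10). One edgeR 4.0.16 quasi-likelihood model in R 4.3.3 with 4 group means took in all 16 samples (12 residual degrees of freedom, biological coefficient of variation 14%). It was also run on simulated counts, for TCDD in control morphants only. The simulated counts held no library that stands apart, so that run does not bear on calls that depend on such libraries. The SE is the log2 fold change divided by the square root of the F statistic. Log2 CPM for correlations used a prior count of 2. DESeq2 1.42.0 and limma-voom 3.58.1 were among the alternatives.

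The members and lists were chosen with earlier results of these data known. Values per sample are given for members called in any comparison, for the member with the highest level in each role and for the smallest p where none was called; other lists are named through their called genes. Intervals of counting error were not computed, since replicates give the spread. One gene is not reported here.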

Additional observations from a re-analysis of the deposited data

Results flagged for a closer look

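One value stood far from the others of its group. RHAG was at 150.6 CPM in the second ConMO_DMSO library and at 223 to 237 CPM in the other 3, and the gap to the nearest was 0.844 of the group's range, above Dixon's critical value. It was the one among 104 groups of 4 looked at, and chance flags about 1 in 20 such groups. That library had the lowest share of reads in no gene of its group, 12.8%. Without it the mean TCDD response of RHAG was 0.40 (adjusted p 0.0689) and no longer called.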

How the results depend on the processing

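No called log2 fold change of a member changed sign under any of the alternatives run. For TCDD in control morphants, where 1 member was called, 2 were called with no filter on low counts and with DESeq2, and 0 when only the 8 samples compared were fitted; leaving out 1 library gave 0 to 1. In the mean TCDD response, leaving out 1 library gave 3 to 5 members, and in the mean morpholino comparison 1 to 2. With both libraries that stand apart left out, a choice made after seeing the data, the counts were 0 in control morphants, 2 in the mean TCDD response and 1 in the mean morpholino comparison. The share of all genes called under each alternative was not taken, so these counts cannot show a shift particular to the members. The cause of these shifts was not tested. The calls of alas2 and hbbe3 in the means were kept under all 25 alternatives. The calls of RHAG and nt5c2l1 were lost under 14 and 10 of them. Levels of all 92 member groups moved by less than 1 SD on raw gene totals.

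The labels do not say whether samples with the same replicate number share a clutch or day. Same-numbered samples deviated from their group means with correlations of −0.18 to 0.13 over 24 pairs. Differently numbered samples had −0.21 to 0.19 over 72 pairs. Such correlations over all genes cannot settle whether a clutch or day was shared. With the replicate number as a block, 4 members were called in the mean TCDD response and 2 in the mean morpholino comparison. With it, 1 was called for TCDD in control morphants and 0 in the others. RHAG was the one lost (0.46, adjusted p 0.0525). The share of all genes called with the block was not taken.

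Depth limits hbae1.1, FECH and gata1a, with as few as 2, 18 and 13 counts in a library. Globin reads at several places are not counted.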
